A study of Mus musculus with 2 samples.

Results

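Ion channel genes were compared between 2 cell populations of the mouse lens, its cortical fibers and its epithelium. The genes were taken by symbol and cover potassium channels (Kcn), chloride channels and chloride intracellular channel proteins (Clcn, Clic), voltage-gated calcium channels (Cacn), TRP channels of the Trpc, Trpm and Trpv families, and voltage-gated sodium channels (Scn). The match by symbol used no measured value, but the families were chosen with earlier results of these data known. It gave 141 probes with a single platform symbol, 140 of them with a value on both arrays, for 122 of the 13709 genes measured. By symbol, 67 fall to the potassium, 11 to the chloride, 21 to the calcium, 15 to the TRP and 8 to the sodium families. The symbols also bring in Kcnq1ot1, a long non-coding RNA transcribed antisense within Kcnq1, and Trpc4ap, which encodes a protein bound to a TRP channel. Neither is a channel.

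Both samples were poly(A) RNA of lenses from mice aged 13 days, 5 mice in all, and no genotype, strain or treatment is given in the labels. Forceps dissection separated the capsule carrying the epithelium from the fiber cells of the cortex. Each population was hybridized to 1 array, and the sources used here do not say whether the mice were pooled. A free-text note attached to both samples describes liver of the fetus, so the tissue was checked by markers. All 6 lens epithelium markers measured, among them Foxe3 and Cdh1, were at least 3-fold higher on the epithelium array, and 6 of 8 lens fiber markers were higher on the cortex array. Of 4 liver markers measured, 3 were at the floor on both arrays, and Afp was above it on both (0.660 in cortex, 0.680 in epithelium). Of 2 erythroid markers, Hba-a1 stood at 1.39 in cortex and 1.79 in epithelium. Klf1 stood at 1.11 in cortex and under the floor in epithelium.

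The lens has no blood vessels, and its cells are thought to be served by a circulating current of ions that enters along the surface and leaves at the equator. Potassium channels of the epithelium and the outer fibers set the resting voltage that drives this current. Chloride channels take part in the control of fiber volume, and calcium has to stay low in fibers, where calcium-dependent proteases can cut crystallins and the cytoskeleton. TRP channels are cation channels, of which Trpv4 is known in lens epithelium as a sensor of swelling.

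The deposited values are normalized intensities in units close to each array's median (0.998 on both). A floor was set at 0.5 of that median (0.499), and a value under it has no measured level. Differences are log2 cortex minus log2 epithelium. A gene was called higher on an array when its value there was 3-fold or more that on the other and reached the array's median. If the dimmer array lay under the floor, the fold is a bound, written "at least". With 1 array a group there is no replicate and no p-value, and the number of arrays limits every value. The single measure of error is technical. In 558 genes with several measured probes, the differences given by probes of 1 gene had a pooled SD of 1.10 (log2), or 2.14-fold. In the 2 member genes so measured it was 1.73. A difference near the 3-fold limit can therefore lie within the spread between probes. In such bulk samples fewer cells of a type and less RNA per cell cannot be told apart.

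Many of the channel genes were dim. On the cortex array 72 of 122 (59.0%) exceeded the floor, against 69.9% of all genes. On the epithelium array 68 of 122 (55.7%) did, against 66.5% of all genes. A total of 58 were above it on both arrays, 14 on the cortex array alone, 10 on the epithelium array alone, and 40 (32.8%, against 24.5% of all genes) on neither. Calls were made for 21 genes. Of the 122, 14 (11.5%) were higher in cortex, where 9.41% of all genes were, and 7 (5.74%) were higher in epithelium, where 8.17% of all genes were. Both shares lie near the background, so the number of calls says nothing particular about channels. Among the 58 genes measured on both arrays, 39 (67.2%, against 51.0% of all such genes) were brighter in cortex, 32 differed by less than 2-fold, and the median log2 difference was 0.33 against 0.03 for all genes. The sign of the members' median depended on the scaling. The members' median was 0.36 after quantile normalization (-0.11 for all genes) and 0.47 after loess on brightness (-0.01 for all genes). When both arrays were instead centred on 66 ribosomal protein genes, which moved the differences by 0.93 toward epithelium, the medians were -0.59 and -0.89. In the scatter of log2 intensities some called members lie far from the line of equal values and others, such as Cacng8 and Cacng5, just past the 3-fold limit.

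**Figure D1:**
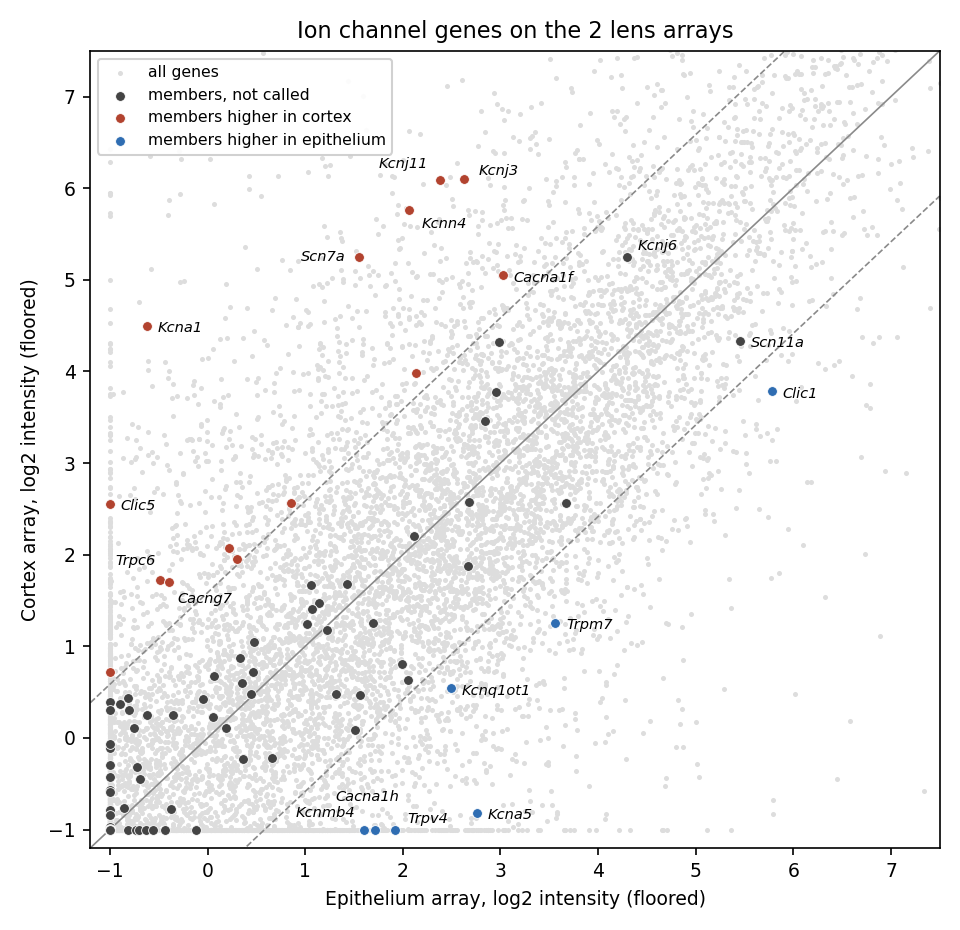
Floored log2 intensity of each gene on the epithelium array (x axis) and the cortex array (y axis). Grey points are all genes, dark points are ion channel members without a call, and red and blue points are the 14 members higher in cortex and the 7 higher in epithelium. The solid line marks equal values and the dashed lines a 3-fold difference, points on the left or bottom edge at -1 lie at the floor, and genes above 7.5 are outside the frame. Kcna1, Kcnj11, Kcnj3, Kcnn4 and Scn7a lie farthest above the line among members measured on both arrays, and Kcna5 farthest below it.

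Inward rectifier potassium channels pass current more readily into the cell than out of it and hold the membrane near the potassium equilibrium. Of 13 measured, 2 were higher in cortex (9.41% of all genes were), none in epithelium (8.17%), and 8 were at the floor on both arrays. Counts in groups of this size, here and below, were not tested against these shares. Kcnj11, the pore subunit of ATP-sensitive potassium channels, was 13.0-fold higher in cortex (67.8 against 5.21). Kcnj3, a subunit of the potassium channels that G proteins open, stood at 68.7 and 6.16, an 11.1-fold difference. Its partner Kcnj6 was above the floor on both arrays and closer between them (38.1 against 19.7, 1.93-fold). Kcnj14 was 1.73-fold brighter in epithelium and passed the limit there after ribosomal centring (-1.72). Kcnj12 was seen in epithelium alone, at 0.924. Kcnj5, the other common partner of Kcnj3, was at the floor on both arrays with each of its probes.

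An ATP-sensitive channel needs a sulfonylurea receptor beside its pore, so the receptor genes were read as well, after the value of Kcnj11 was seen. Abcc8, the receptor paired with Kcnj11 in pancreatic beta cells and the gene next to it in the genome, was higher in cortex too (103 against 14.1, 7.32-fold). A second Abcc8 probe stood at 11.2 and 5.81 and differed by 0.94 on the log2 scale, in the same direction but under the limit. The alternative receptor Abcc9 and the alternative pore Kcnj8, which form the channel of vascular smooth muscle, were both at the floor on both arrays. The pore and receptor genes above the floor were thus Kcnj11 and Abcc8.

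The potassium channels opened by intracellular calcium or sodium were grouped by symbol with Kcnu1, which was at the floor on both arrays. Of these 7 genes, 2 were higher in cortex (9.41% of all genes) and none in epithelium (8.17%). Kcnn4, the calcium-activated channel of intermediate conductance, was 13.0-fold higher in cortex (54.4 against 4.17). The small-conductance channel Kcnn3 was nearly equal on the arrays (5.95 against 6.39). Kcnt1, a sodium-activated channel, was 3.60-fold higher in cortex by its brighter probe (4.20 against 1.17). The other Kcnt1 probe went the opposite way, at 0.592 in cortex and 1.66 in epithelium, and the mean over both probes differed by 0.18. The direction for Kcnt1 is therefore not settled by these probes. Kcnma1, the pore of the large-conductance channel, was seen in cortex alone at 1.24, at least 2.48-fold brighter and so not called. Kcnmb4, a beta subunit of that channel, was seen in epithelium alone, at 3.03, and was at least 6.06-fold higher there.

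The voltage-gated potassium alpha subunits, which open on depolarization, form the largest group, with 26 genes beside the non-coding Kcnq1ot1. Of the 26, 2 were called, 1 in cortex (9.41% of all genes) and 1 in epithelium (8.17%). Kcna1, a delayed rectifier of the Shaker family, had the widest difference of all members. It stood at 22.5 in cortex and 0.653 in epithelium, 34.5-fold with the floor used here and at least 22.6-fold if the floor is put at the array median. Kcna5, from the same family, went the other way, 12.0-fold higher in epithelium (6.79 against 0.566), or at least 6.80-fold with the higher floor. Kcnq1ot1 was brighter in epithelium by 1 probe (5.63 against 1.46, 3.87-fold). A second Kcnq1ot1 probe was seen in cortex alone at 1.49, at least 2.98-fold brighter there. The probes of this RNA thus disagreed, and their mean differed by -0.19. Kcnq1 itself was at the floor on both arrays. A further 14 subunits were above the floor on both arrays and under 3-fold. They include Kcng3, a modifier subunit silent by itself (11.0 against 7.16), Kcns1 (3.20 against 2.69) and Kcng4 (1.55 against 4.16, 2.69-fold brighter in epithelium). Another 3 had only bounds under the limit, and 7 were at the floor on both arrays.

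The 2-pore-domain potassium channels carry background leak current. Kcnk5, an acid-sensitive member, was the single call among 7, where 9.41% of all genes were higher in cortex. Kcnk5 was seen in cortex alone at 1.64, at least 3.30-fold higher. It fails the rule with the floor raised to the array median. Kcnk2, a stretch-sensitive channel, stood at 13.7 in cortex and 7.76 in epithelium (1.77-fold), and Kcnk1 was 2.68-fold brighter in epithelium (2.85 against 1.06). After ribosomal centring Kcnk1 passed the limit and Kcnk5 did not. Of the 13 auxiliary subunits of potassium channels, 8 were at the floor on both arrays. Kcnmb4 was the single call, where 8.17% of all genes were higher in epithelium. Kcnip1, a calcium-binding partner of A-type channels, was 2.52-fold brighter in cortex (20.0 against 7.92), below the limit. Kcne1l, an X-linked member of the Kcne family, was 2.13-fold brighter in epithelium (2.95 against 1.38).

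**Figure D2:**
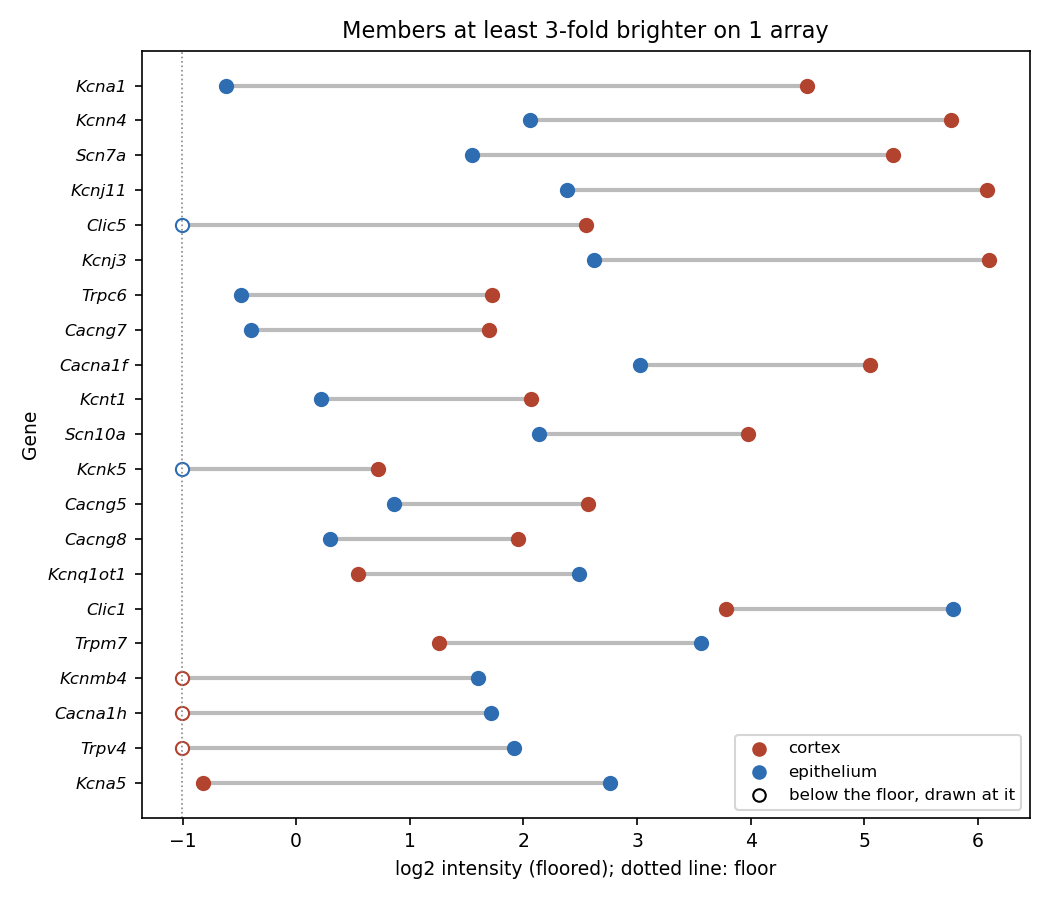
Floored log2 intensity of the 21 called members on the cortex array (red) and the epithelium array (blue), with genes on the y axis ordered by their difference. Open circles are values under the floor, drawn at the floor (dotted line), so that the bar beside them is a lower bound. Of the 14 genes higher in cortex, 12 were measured on both arrays and 2 (Clic5, Kcnk5) have bounds, and of the 7 higher in epithelium, 4 were measured on both and 3 (Kcnmb4, Cacna1h, Trpv4) have bounds.

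The chloride intracellular channel proteins are small proteins of the glutathione transferase fold found both in the cytosol and at membranes. Of 5 measured, 1 was higher in cortex (9.41% of all genes were) and 1 in epithelium (8.17%). Clic1 stood at 13.8 in cortex and 54.8 in epithelium, 3.99-fold higher in epithelium. Clic5, linked to the actin cytoskeleton through ezrin, stood at 5.88 in cortex and under the floor in epithelium, at least 11.8-fold higher in cortex. Its second probe gave 3.03 against a value under the floor, at least 6.08-fold, which passes the limit in the same direction. Clic5 was the only called member whose second probe did so. Clic3, Clic4 and Clic6 were above the floor on both arrays and under the limit. Clic3 stood at 1.36 in cortex and 0.567 in epithelium, Clic4 at 1.17 and 1.04, and Clic6 at 1.07 and 0.592.

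The CLC genes encode chloride channels of the plasma membrane and chloride-proton exchangers of endosomes and lysosomes. None of the 6 was called with the deposited scaling (9.41% of all genes in cortex, 8.17% in epithelium). Clcn3 (-2.03) and Clcn4 (-1.80) passed the limit in epithelium after ribosomal centring, where 20.2% of all genes were then called. Clcn3, an endosomal exchanger, was 2.15-fold brighter in epithelium (12.7 against 5.91), and a second Clcn3 probe lay at the floor on both arrays. Clcn4, its close relative, was 1.84-fold brighter in epithelium (1.58 against 0.857). Clcn6, a late endosomal exchanger, was nearly equal (1.08 against 1.14), Clcn2 was seen in epithelium alone at 0.569, and Clcn5 and Clcn7 were at the floor on both arrays.

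Of the 7 pore subunits of voltage-gated calcium channels, 1 was higher in cortex (9.41% of all genes were) and 1 in epithelium (8.17%). Cacna1f, the L-type subunit best known from photoreceptors, was 4.06-fold higher in cortex (33.1 against 8.14), and under 3-fold after ribosomal centring (1.10 on the log2 scale). Cacna1h, a T-type subunit, was seen in epithelium alone at 3.29, at least 6.59-fold higher. Cacna1b, the N-type subunit, was close on the 2 arrays (4.61 against 4.32). The L-type subunit Cacna1c stood at 0.854 and 1.28, a 1.50-fold difference. Among the 14 auxiliary subunits, 3 were higher in cortex (9.41% of all genes) and none in epithelium (8.17%). All 3 belong to the gamma family, whose members include partners of AMPA-type glutamate receptors. Gamma genes make up most of this group, and Cacng1, Cacng2, Cacng3, Cacng4 and Cacng6 were not called. Cacng7 stood at 3.25 against 0.759 (4.29-fold), Cacng5 at 5.93 against 1.81 (3.27-fold) and Cacng8 at 3.88 against 1.23 (3.14-fold). These 3 differences are near the limit, and none passed it after ribosomal centring. The beta subunits, which bring the pore to the membrane, were dim, with Cacnb2 at the floor on both arrays and Cacnb1 and Cacnb4 not above 0.773 on either.

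TRP channels gave 1 call in cortex (9.41% of all genes) and 2 in epithelium (8.17%) among 15 symbols. At the floor on both arrays were 6. Trpc6, opened by diacylglycerol, was 4.62-fold higher in cortex (3.30 against 0.714), and under 3-fold after ribosomal centring. Trpm7, a magnesium-permeable channel joined to a protein kinase, was 4.95-fold higher in epithelium (11.8 against 2.39). Trpv4, the swelling sensor, was seen in epithelium alone at 3.79, at least 7.59-fold higher. Trpc5 was 2.27-fold brighter in epithelium and Trpv3 was 1.53-fold brighter in cortex, both under the limit. Trpm5, a taste cell channel opened by calcium, was seen in cortex alone at 1.31, at least 2.63-fold brighter. Trpm1, found in pigment cells and retinal bipolar cells, reached 0.603 in epithelium, and Trpv2, Trpv6, Trpm2, Trpm8, Trpc4 and Trpc7 were at the floor on both arrays. Trpc4ap did not differ by the rule (2.39 against 3.24).

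Of 8 voltage-gated sodium channel genes, 2 were higher in cortex (9.41% of all genes) and none in epithelium (8.17%). Scn7a, which encodes a sodium-sensing relative of these channels, was 13.0-fold higher in cortex (38.0 against 2.92). Scn10a, the tetrodotoxin-resistant channel of sensory neurons, was 3.58-fold higher in cortex (15.8 against 4.41), and under 3-fold after ribosomal centring. Scn11a, also of sensory neurons, was 2.18-fold brighter in epithelium (44.0 against 20.2), and passed the limit there after quantile normalization (-1.71). Scn2b, a beta subunit, was 1.48-fold brighter in cortex. The brain channel genes Scn1a, Scn3a and Scn8a reached no more than 0.804 on either array.

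**Figure D3:**
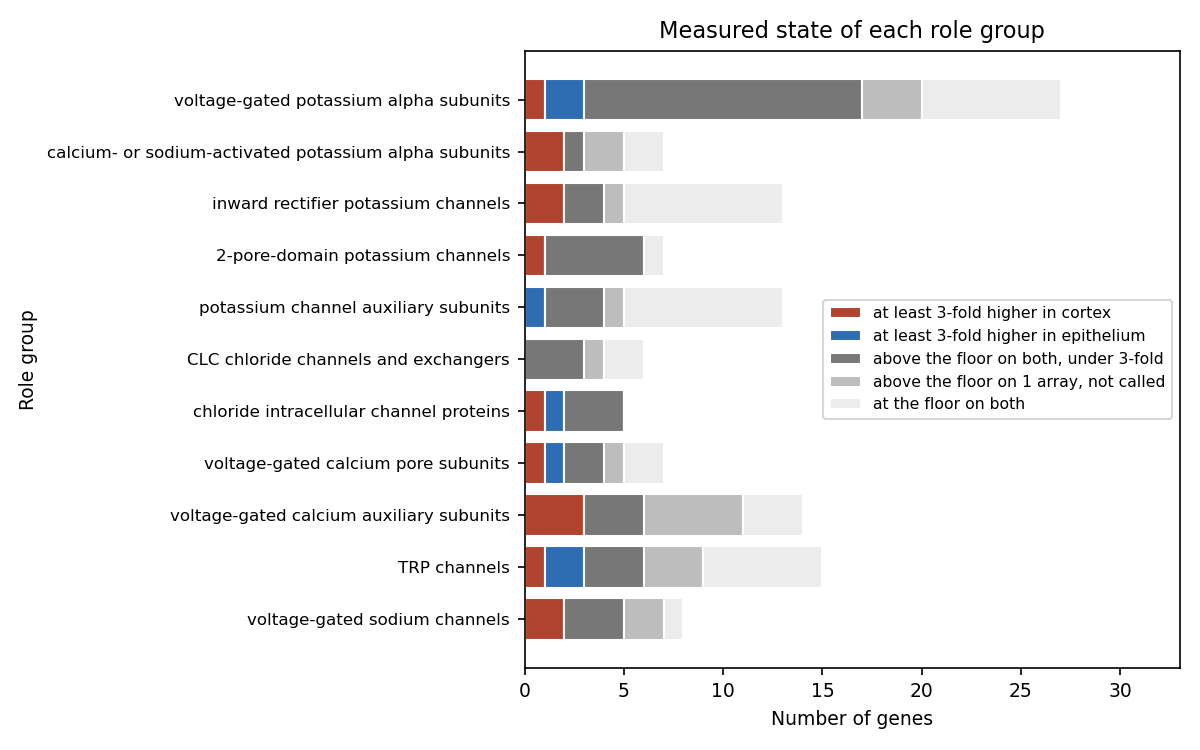
Number of member genes (x axis) in each of the 11 role groups (y axis), divided into those at least 3-fold higher in cortex or epithelium, those above the floor on both arrays and under 3-fold, those above it on 1 array without a call, and those at the floor on both. The voltage-gated potassium group holds 3 calls among 27 symbols, the non-coding Kcnq1ot1 among both, and the inward rectifiers and auxiliary potassium subunits each hold 8 of 13 genes at the floor.

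Several members are neighbours in the genome, and their values were set side by side from the RefSeq gene order of assembly GRCm38.p6. Kcna5, Kcna1 and Kcna6 follow each other on chromosome 6 with no other coding gene between them. The first was higher in epithelium and the second in cortex, with log2 differences of -3.59 and 5.11, while Kcna6 was seen in cortex alone at 0.953. Cacng7, Cacng8 and Cacng6 adjoin on chromosome 7. Cacng7 and Cacng8 were higher in cortex and Cacng6 was seen there alone at 0.746. On chromosome 11 Cacng5 was higher in cortex while its neighbour Cacng4 was level (0.590 against 0.551). Scn9a and Scn7a adjoin on chromosome 2, where Scn9a reached 0.663 in cortex and lay under the floor in epithelium. Scn10a and Scn11a adjoin on chromosome 9 and differed in opposite directions, by 1.84 and -1.12. Over the 10 neighbouring pairs of 1 family in which both genes had a difference or a bound, the sign was the same in 6 and opposite in 4 with the deposited scaling. Most of these differences are under 3-fold, and no test was made.

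Promoter windows are shown for 2 members higher in each sample, to give the sequence before the start of genes that went in opposite directions. The windows are the 250 bases before the RefSeq start in GRCm38.p6, which listed 139 windows for 101 of the 122 genes. They are written from 5′ to 3′ on the gene's strand, with CG pairs in capitals. Kcnn4 (chr7:24370013-24370262, plus strand) and Clic5 (chr17:44188322-44188571, plus strand) were higher in cortex, and Kcna5 (chr6:126535556-126535805, minus strand) and Trpm7 (chr2:126876262-126876511, minus strand) in epithelium.
Kcnn4: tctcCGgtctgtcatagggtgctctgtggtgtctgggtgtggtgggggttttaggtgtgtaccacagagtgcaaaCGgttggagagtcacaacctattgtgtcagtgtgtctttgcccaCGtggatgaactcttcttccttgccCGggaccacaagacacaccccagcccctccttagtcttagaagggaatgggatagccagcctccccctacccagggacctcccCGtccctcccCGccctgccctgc
Clic5: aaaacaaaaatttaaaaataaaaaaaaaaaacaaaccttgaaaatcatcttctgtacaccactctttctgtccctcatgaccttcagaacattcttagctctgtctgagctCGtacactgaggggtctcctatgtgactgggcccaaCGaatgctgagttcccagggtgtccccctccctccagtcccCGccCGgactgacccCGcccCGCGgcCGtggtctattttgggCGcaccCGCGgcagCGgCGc
Kcna5: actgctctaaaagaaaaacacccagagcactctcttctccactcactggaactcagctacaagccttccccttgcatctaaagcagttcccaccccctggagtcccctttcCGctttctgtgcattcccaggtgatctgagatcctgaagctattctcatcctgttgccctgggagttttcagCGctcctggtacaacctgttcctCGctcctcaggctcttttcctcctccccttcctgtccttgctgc
Trpm7: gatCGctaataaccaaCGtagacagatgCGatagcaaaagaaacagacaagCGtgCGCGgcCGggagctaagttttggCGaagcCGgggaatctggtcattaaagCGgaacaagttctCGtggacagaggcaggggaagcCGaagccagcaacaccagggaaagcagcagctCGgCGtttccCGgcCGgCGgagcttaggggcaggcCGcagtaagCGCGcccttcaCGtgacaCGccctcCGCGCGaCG

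These windows hold 6, 13, 3 and 26 CG pairs in the order shown. Windows were matched for 11 of the 14 members higher in cortex and 6 of the 7 higher in epithelium, and not for Kcna1, Kcnj11, Kcnt1 and Cacna1h. Over the 12 windows of the 11 cortex genes the count ran from 0 (Cacng8) to 19 (Kcnk5) with a median of 7.5, and over the 6 epithelium windows from 3 (Kcna5) to 43 (Kcnmb4) with a median of 17.5. The median over all 32851 windows was 6. The ranges overlap and no test was made. The heat shock element, searched as GAANNTTC, occurred on either strand in 6.69% of all windows and 5.76% of the members' windows. Among called members it was found in Clic5, as GAACATTC with its first base 164 bases before the start. The Maf half-site TGCTGAC, searched on both strands, occurred in 3.81% of all windows and 3.60% of the members', among called members in Kcnq1ot1. The TATA box TATAAA, also searched on both strands, occurred in 12.4% of all windows and 5.04% of the members', and in none of the 18 windows of called members read here. A match is a run of letters and was not tested as a binding site.

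A list of 79 other ion channel symbols gave 49 measured genes, of which 6 (12.2%, against 9.41% of all genes) were higher in cortex, 1 (2.04%, against 8.17%) in epithelium and 42 not called, with 15 at the floor on both arrays. After ribosomal centring 2 of the 6, Cngb1 and Scnn1b, were still higher in cortex, while Cnga1, Ttyh2, Itpr2 and Scnn1a were under 3-fold. Cngb1 and Cnga1, subunits of the cyclic nucleotide-gated channel of rods, were higher in cortex, Cngb1 at least 22.2-fold (11.1 against a value under the floor) and Cnga1 5.55-fold (3.03 against 0.547). If the floor is put at the array median, these become at least 11.1-fold and at least 3.04-fold. Scnn1b, a subunit of the epithelial sodium channel, was at least 9.16-fold higher (4.57 against a value under the floor), or at least 4.58-fold with the higher floor. Its partner Scnn1a was 3.26-fold higher, named with Itpr2 after their values were seen, and Scnn1g was at the floor on both arrays. Ttyh2, which encodes a chloride channel candidate of the tweety family, was 4.31-fold higher (40.8 against 9.45), and Itpr2, a calcium release channel of the endoplasmic reticulum, 4.29-fold by its brightest probe (6.79 against 1.58). A second of its 4 probes was called in the same direction and the other 2 were not, so that the mean over probes was 2.30-fold, under the limit. P2rx6, an ATP-gated cation channel, was the single call in epithelium, 6.32-fold (3.58 against 0.567), or at least 3.59-fold with the higher floor.

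Channels best known from photoreceptors, neurons and pigment cells appear above, so markers of such cells are given beside them. Of 6 retinal photoreceptor and neuron markers measured, none was called. Their summed intensity was 11.4 in cortex and 6.47 in epithelium, with Snap25 the brightest at 6.42 and 2.50. The photoreceptor regulator Crx was 2.94-fold brighter in cortex (1.51 against 0.513), just under the limit, and Rcvrn stood at 2.35 and 1.87. Nrl (0.618 against 0.769) and Syt1 (0.531 against 0.675) were slightly brighter in epithelium, and Gnat1 was at the floor on both arrays. Of 6 ciliary body and iris markers, 3 were higher in epithelium (summed intensity 66.6 in cortex and 173 in epithelium), with 2 at the floor on both arrays. The sums rest mainly on single genes, Msx2 in cortex (57.3 against 40.2, not called) and Ptgds in epithelium (123 against 7.54). Among 6 pigment cell markers 2 were higher in epithelium and 1 in cortex (4.93 and 14.8), and Tyr was at the floor on both. Of 5 muscle markers Acta1 was higher in cortex (17.1 against 0.741). Ckm and Tnnt3 were seen in cortex alone, at 0.609 and 0.770, and were not called. Des and Myh2 were at the floor on both arrays. The 4 endothelial markers were not called. Cdh5, Kdr and Pecam1 were at the floor on both arrays, and Tek was 2.58-fold brighter in epithelium (2.40 against 0.928). The 2 erythroid markers were not called either. The part of such cells in the channel values was not tested.

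The calls depended on the scaling in a plain way. All 14 cortex calls and all 7 epithelium calls were kept after quantile normalization and after loess on brightness. Ribosomal centring left 6 members higher in cortex (Kcna1, Kcnn4, Scn7a, Kcnj11, Clic5 and Kcnj3) and 16 higher in epithelium, the 7 named above with Clcn3, Clcn4, Kcna3, Kcne1l, Kcng4, Kcnj14, Kcnk1, Scn11a and Trpc5. Cortex thus took 66.7% of the members' calls with the deposited scaling and 27.3% after this centring, against 53.5% and 17.4% over all genes. The 8 calls lost in cortex were Trpc6, Cacng7, Cacna1f, Kcnt1, Scn10a, Kcnk5, Cacng5 and Cacng8. In the plot of scalings each called member kept its direction.

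**Figure D4:**
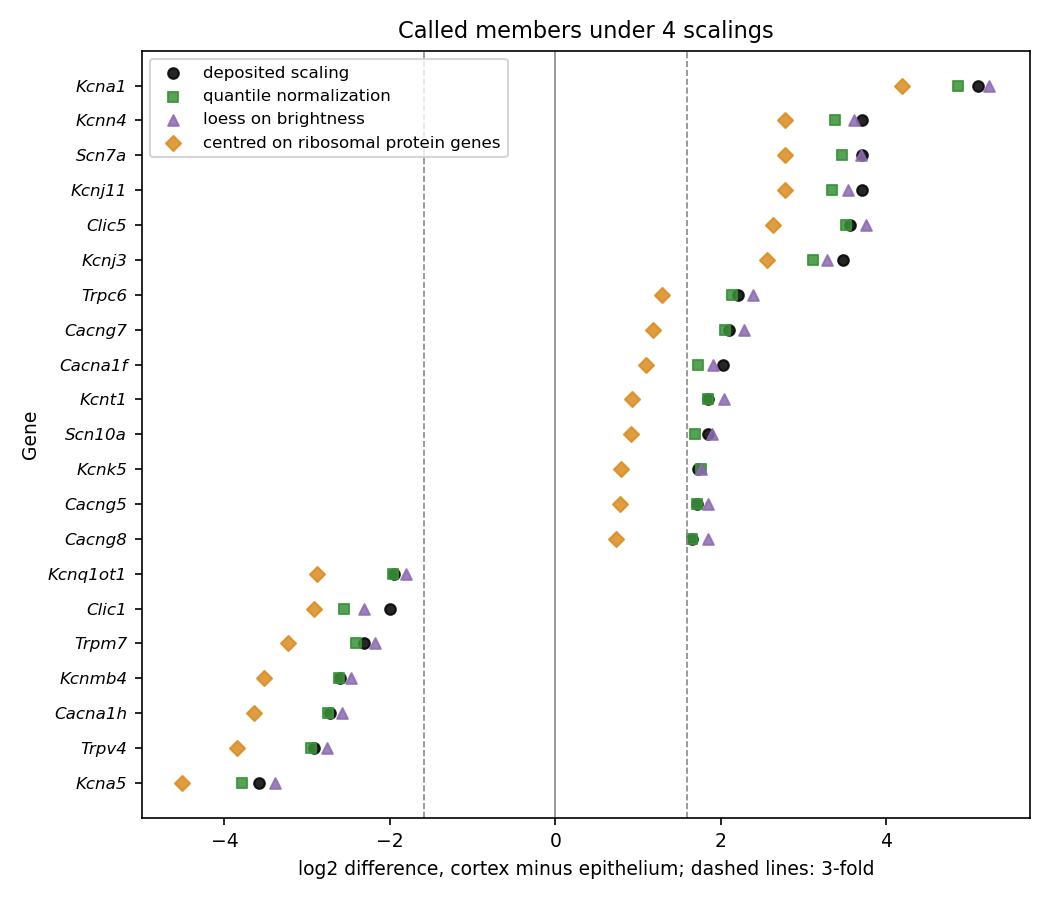
Log2 difference, cortex minus epithelium (x axis), of the 21 called members (y axis) with the deposited scaling (circles), after quantile normalization (squares), after loess on brightness (triangles) and after centring on ribosomal protein genes (diamonds). Dashed lines mark 3-fold. The upper 6 genes stay beyond the limit in each of the 4 scalings, the next 8 lie between 0 and the limit after ribosomal centring, and the lower 7 stay beyond it.

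Agreement between probes could be read for few members. Of 17 members with several probes, 12 of the 18 further probes lay at the floor on both arrays. Of the 3 called members with a second probe, Clic5 was called by both, while Kcnt1 and Kcnq1ot1 had probes that differed in opposite directions. The remaining 18 calls rest on 1 probe on 1 array of each sample. If the floor is put at the median the bounds fall to at least 5.89-fold for Clic5, 3.79-fold for Trpv4, 3.30-fold for Cacna1h and 3.03-fold for Kcnmb4. With that floor Trpc6 and Cacng7 also have only bounds, at least 3.31-fold and at least 3.26-fold.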

How the data were processed

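RNA of lens cortex and lens epithelium was measured on 1 CodeLink array each (1-colour, biotin label), per the labels. The deposited values are intensities on a linear scale with a median close to 1, and how the authors corrected background and scaled them is not stated in the sources used. Samples were grouped by source name. Probes with 1 platform symbol (15120 of 19819) were named through the platform annotation, and all 122 members matched RefSeq GRCm38.p6 by Entrez identifier. Probes with a missing value were left out. Values under 0.5 of the array median were raised to that floor before log2. The brightest probe stood for a gene, and a call needed 3-fold and the brighter array at its median. Calls were computed over all 13709 genes, with no test, since there is no replicate. The calling steps were run on a copy of the cortex array with known changes put into bright genes and little noise. That run cannot measure false calls near the floor or at the spread seen between probes. Named genes are all called members, the 2 brightest measured members of each role group, and for the other channels the 4 widest calls a direction; others are named for their role and were chosen after their values were seen. The members, lists and rules were chosen with earlier results of these data known. Promoter windows came from RefSeq. Alternatives were other scalings (loess span 0.3), floors, probe summaries, fold limits and brightness filters. Python 3.11.15, numpy 2.4.6, pandas 2.3.3, statsmodels 0.14.6 and matplotlib 3.10.9 were used.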

Additional observations from a re-analysis of the deposited data

How the results depend on the processing

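The counts of 14 members higher in cortex and 7 in epithelium stayed within 1.5 times under quantile normalization, loess, other floors, other probe summaries and other brightness filters. After centring on ribosomal protein genes they were 6 and 16 (4.92% and 13.1%, against 4.27% and 20.2% of all genes). The member median was then -0.59, and 2 and 4 other channel genes were called in place of 6 and 1. With a 5-fold limit 6 and 4 members passed (4.92% and 3.28%, against 5.09% and 3.48% of all genes), and 3 other channel genes in cortex. With a 2-fold limit 20 and 13 members passed (16.4% and 10.7%, against 16.4% and 15.3% of all genes). In epithelium 2 other channel genes passed at that limit, as also after quantile normalization. A floor at the array median left 45.1% of members above it in cortex and 38.5% in epithelium, and a floor at 0.25 of the median 81.1% and 66.4%. No call changed direction. Apart from the 5-fold limit, 6 calls in each direction held in all 9 settings that give a value per gene. Single probes give no value per gene. No replicate could be left out with 1 array a group, and values near the floor limit the dim members most.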
